A study of Homo sapiens with 6 samples.

Results

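The 7 genes described here are IGF2BP1, IGF2BP2, IGF2BP3, LIN28A, LIN28B, HMGA1 and HMGA2, taken by symbol from the 27420 genes of an expression table. They were followed in A673 and SKNMC, established cell lines of Ewing sarcoma, a tumour of bone and soft tissue driven by the fusion of EWSR1 with an ETS factor gene such as FLI1. Cells of each line received 50 nM THZ1, 200 nM THZ1 or DMSO, the vehicle, and were harvested at 6 h. THZ1 is a covalent inhibitor of CDK7, the kinase of the general transcription factor TFIIH that phosphorylates RNA polymerase II. The labels give 1 RNA-seq library for each of the 6 conditions, so no difference within a line could be set against an error between replicates, no test was run and no p-value is given. Each line stands for 1 tumour.

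Oncofetal genes are active in embryonic tissue, largely silent in most adult tissue and active again in many tumours. The genes described here are grouped under that name, though IGF2BP2 and HMGA1 are less restricted than the others. The IGF2BP proteins bind messenger RNA and affect its stability, transport and translation. LIN28A and LIN28B bind the precursors of the let-7 microRNAs and block their maturation, while mature let-7 lowers the mRNA of LIN28B, HMGA2 and IGF2BP1. The HMGA proteins are small chromatin proteins that bind the minor groove of AT-rich DNA.

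An element shared by the group is a match to the let-7 seed. The sequences below show the seed in the microRNA and its complement in the messenger RNAs. RefSeq (GRCh38.p14) gave 9 mature sequences of the family, and all 9 have the same seed, bases 2 to 8. Those of 4 are printed here 5′ to 3′ with the seed in capitals, to show that they differ only outside it.
hsa-let-7a-5p: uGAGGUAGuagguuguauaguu
hsa-let-7d-5p: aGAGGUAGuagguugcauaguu
hsa-let-7g-5p: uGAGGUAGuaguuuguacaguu
hsa-miR-98-5p: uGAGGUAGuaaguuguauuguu

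The precursor of let-7g is printed because LIN28 proteins act at this stage. In capitals is GGAG, the letters that the zinc knuckles of LIN28 are known to recognise, where they last occur between the arms of the hairpin. It lies on chromosome 3, minus strand, chr3:52268278-52268361 of GRCh38. The same letters were found between the arms of 9 of the 12 let-7 family hairpins in the RefSeq table.
let-7g precursor: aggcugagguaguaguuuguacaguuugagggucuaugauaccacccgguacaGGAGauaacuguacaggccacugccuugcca

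The complement of the seed, CTACCTC, was searched on the transcript strand of the annotated 3′ UTRs of GENCODE release 44 on GRCh37, with no other motif searched. It occurred at least once in the 3′ UTR of all 7 genes, against 1897 of 19388 genes (9.78%) overall. LIN28B, HMGA2 and IGF2BP1 are known let-7 targets, so matches there were likely in advance. The other genes belong to the same families and were chosen with them, so the matches in all 7 are no independent finding. No share of genes with matches, here or below, is a test. IGF2BP1, LIN28B and HMGA2 held 4 matches each, and 12 genes of the 19388 held 4 or more. The most, 6, were in TRIM71, another gene that let-7 is known to repress. IGF2BP2, IGF2BP3, LIN28A and HMGA1 held 1 match each. One exonic match of each gene is printed with the 15 bases before it and the base after it, in the direction of the transcript, with the match in capitals. They are the first matches after the stop codon, which in HMGA2 began at base 21 and in LIN28B at base 44 of the 3′ UTR.
IGF2BP1, chr17:47128423-47128445, plus strand: tgtgtgcgaagtaaaCTACCTCa
IGF2BP2, chr3:185362008-185362030, minus strand: aacacacagaagaagCTACCTCa
IGF2BP3, chr7:23351414-23351436, minus strand: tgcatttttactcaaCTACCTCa
LIN28A, chr1:26753839-26753861, plus strand: gcacagcctattgaaCTACCTCa
LIN28B, chr6:105526687-105526709, plus strand: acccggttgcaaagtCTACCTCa
HMGA1, chr6:34213606-34213628, plus strand: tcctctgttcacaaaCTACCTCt
HMGA2, chr12:66357078-66357100, plus strand: gccaacgttcgatttCTACCTCa

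An A stands directly after the match in 9 of all 16 matches of these genes, 1 of 4 in HMGA2, 2 of 4 in LIN28B and 3 of 4 in IGF2BP1 among them. How often an A follows the motif in other genes was not counted, so these numbers have no background. A long 3′ UTR has more chances to hold the motif, so each gene was set beside all other genes with a 3′ UTR within 10% of its length. For HMGA2, with 2999 bases, 14.9% of 1111 such genes held a match and 0% held 4. For LIN28B, with 4549 bases, the shares were 25% and 0.133% of 752 genes. For IGF2BP1, with 6701 bases, they were 38.1% and 0% of 341 genes. For the genes with 1 match the share was between 7.90% for HMGA1 and 16.5% for LIN28A. A match is a run of letters and not a measured site, and mature microRNAs were not measured in these libraries.

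**Figure D1:**
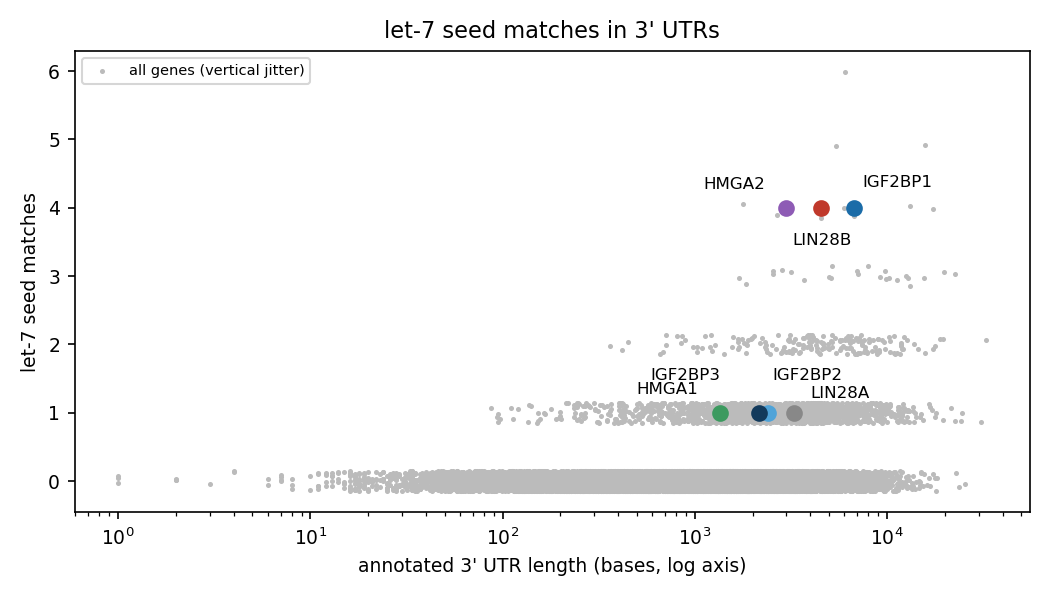
Number of let-7 seed matches (CTACCTC) per gene against the length of its annotated 3′ UTR in bases on a log axis, with all 19388 genes in grey and the 7 genes in colour. IGF2BP1, LIN28B and HMGA2 sit at 4 matches, where only 12 genes lie at or above, and the other genes of the group sit at 1.

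The values are FPKM, fragments scaled by transcript length and by the mapped fragments of the library, which are levels per length and so can be compared between genes. Depth is unknown from FPKM, so no counting interval is given. The listed values summed to between 451872 and 462997 per library. All 8 Ewing sarcoma markers looked up were above 1 FPKM in both DMSO libraries. Of 7 listed markers of other cell types, PTPRC alone was above 1 FPKM in any DMSO library, at 10.2 in SKNMC. Changes are log2 ratios after adding 1 to each FPKM, which understates changes of low genes. A gene was called active when above 1 FPKM in the DMSO library of its line, and was said to have risen or fallen when it changed at least 2-fold. The 50 nM and 200 nM comparisons of a line share its DMSO library.

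With DMSO, 6 of the 7 genes were active in both lines. In A673 the order from high to low was HMGA2, HMGA1, IGF2BP1, IGF2BP3, IGF2BP2 and LIN28B. In SKNMC it was HMGA1, IGF2BP1, HMGA2, IGF2BP3, IGF2BP2 and LIN28B. Neighbours in these orders, such as IGF2BP3 and IGF2BP2 at 32.6 and 32.0 FPKM in A673, could not be set against any spread. HMGA1 in SKNMC stood higher than 97.2% of the 11896 genes above 1 FPKM, and LIN28B in A673 higher than 44.7% of 11077.

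LIN28B fell in every THZ1 library. The number of these genes that fell in A673 at 50 nM was 1 of 6 active (LIN28B), where 15.9% of 11077 active genes did. At 200 nM it was 2 of 6 (LIN28B and IGF2BP2), beside 25.3% of active genes. In SKNMC 2 of 6 (LIN28B and HMGA2) fell at 50 nM, beside 15.8% of 11896 active genes, and the same 2 fell at 200 nM, beside 27.3%. None of the 6 rose at least 2-fold in any of the 4 comparisons, and among all active genes 0.343% and 0.126% did in A673 and 0.471% and 0.462% in SKNMC. Shares of 1 or 2 in 6 are near the background shares, so the counts alone do not set the group apart. The median log2 change of the 6 genes was -0.53 and -0.76 in A673 at 50 and 200 nM, and -0.36 and -0.76 in SKNMC. Over all active genes it was -0.27, -0.40, -0.32 and -0.55 in the same order.

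**Figure D2:**
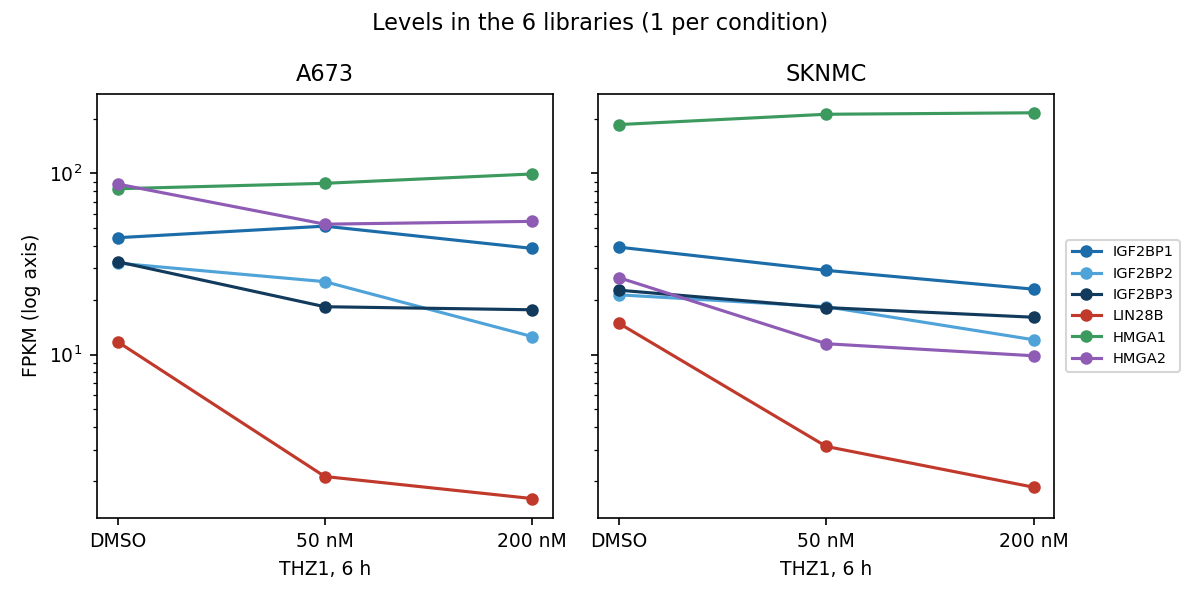
FPKM of the 6 active genes on a log axis in A673 (left) and SKNMC (right) with DMSO, 50 nM or 200 nM THZ1 for 6 h, 1 library per point. LIN28B drops from 11.8 to 1.61 FPKM in A673 and from 14.9 to 1.86 in SKNMC, HMGA1 stays near its DMSO level, and HMGA2 lies higher in A673 than in SKNMC at every dose.

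LIN28B (ENSG00000187772, chr6:105404922-105531207, plus strand) was the LIN28 gene with mRNA above 1 FPKM in these cells. In A673 it measured 11.8 FPKM with DMSO, then 2.13 at the lower dose and 1.61 at the higher. In SKNMC it measured 14.9, 3.12 and 1.86 FPKM. All 4 THZ1 values lay below both DMSO values. The level kept was 18.1% and 13.7% of DMSO in A673 and 20.9% and 12.5% in SKNMC. The log2 changes were -2.03 and -2.29 in A673 and -1.95 and -2.48 in SKNMC.

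Few genes fell further than LIN28B did on this log2 scale. Adding 1 to each FPKM limits how far a gene low with DMSO can fall on it. The shares below therefore leave out low genes that may have lost a larger part of their level. A lower log2 change was found for 1.22% and 2.30% of active genes in A673 at 50 and 200 nM, and for 1.44% and 0.984% in SKNMC. Averaged over the 4 THZ1 libraries its log2 change was -2.19, and 96 of 10574 genes active in both lines (0.908%) had a lower mean. It was the only gene of the group that fell in all 4 comparisons, as 920 of those 10574 genes (8.70%) did. The log2 change of LIN28B was -1.95 or lower already at 50 nM. From 50 to 200 nM no gene of the group fell or rose at least 2-fold in either line, beside 7.44% lower and 0.117% higher of all active genes in A673 and 8.39% and 0.370% in SKNMC.

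LIN28A (ENSG00000131914, chr1:26737268-26756213, plus strand), the other LIN28 gene, known from pluripotent stem cells, was near 0 throughout. In A673 it was listed at 0 with DMSO and at 0.00553 and 0.0169 FPKM with 50 and 200 nM. In SKNMC it was listed at 0.0156, 0.00532 and 0.0340 FPKM. No fold change is given for it, and it was not counted among the active genes.

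The 3 IGF2BP genes were all well above 1 FPKM in every library and moved less than LIN28B. IGF2BP1 (ENSG00000159217, chr17:47074773-47133012, plus strand) encodes a protein that binds and stabilises mRNAs such as that of MYC. It measured 44.2, 51.2 and 38.6 FPKM in A673 with DMSO, 50 nM and 200 nM, and 39.2, 29.2 and 23.0 FPKM in SKNMC. The log2 changes were 0.21 and -0.19 in A673 and -0.41 and -0.74 in SKNMC, none of them 2-fold. The 2 lines had opposite signs at 50 nM, with A673 higher by 0.62 on the log2 scale, a gap that 6.44% of the 10574 genes active in both lines equalled or passed. The gap was 0.55 at 200 nM, which 20.5% of genes equalled or passed. The sign in A673 depends on the scaling: with ribosomal protein genes as the reference the change at 50 nM was -0.03, and with the 75th percentile as the reference the change at 200 nM was 0.17. In SKNMC the first of these scalings put the change at 200 nM at -1.28, which is past 2-fold.

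IGF2BP2 (ENSG00000073792, chr3:185361526-185542844, minus strand) is the family member that also stays expressed in adult tissues. It measured 32.0, 25.3 and 12.6 FPKM in A673 and 21.4, 18.4 and 12.1 FPKM in SKNMC. Without further scaling both lines reached nearly the same level at 200 nM, from different DMSO levels. The log2 difference there, A673 minus SKNMC, was 0.06. It was -0.29 with the 75th percentile and 0.67 with ribosomal protein genes as the reference. IGF2BP2 fell in A673 at 200 nM, with a log2 change of -1.28, while the change in SKNMC was -0.78. At 50 nM the changes were -0.33 and -0.21. It was the only gene of the group whose step from 50 to 200 nM in A673 came near 2-fold, at -0.95 on the log2 scale. With libraries scaled by their 75th percentile, the change in A673 at 200 nM was -0.93, which is not 2-fold, and that in SKNMC at 50 nM was 0.07. With ribosomal protein genes as the reference it was past 2-fold in SKNMC at 200 nM, at -1.28.

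IGF2BP3 (ENSG00000136231, chr7:23349827-23510086, minus strand) is the member most restricted to embryonic and tumour tissue. It measured 32.6, 18.4 and 17.7 FPKM in A673 and 22.7, 18.2 and 16.1 FPKM in SKNMC. None of its changes was 2-fold, at -0.79 and -0.85 in A673 and -0.31 and -0.47 in SKNMC. This rests on the scaling: with ribosomal protein genes as the reference the changes in A673 were -1.02 and -1.19, and with the 75th percentile the change in SKNMC at 200 nM was 0.07. The 4 treated libraries lay between 16.1 and 18.4 FPKM, a narrower range than the 2 DMSO libraries. How close the lines lay also moves with the scaling. With ribosomal protein genes as the reference the log2 difference, A673 minus SKNMC, was 0.95 with DMSO, 0.54 at 50 nM and 0.76 at 200 nM. The gene overlaps MALSU1 by 1522 bases on the other strand. MALSU1, a mitochondrial ribosome assembly gene, went from 39.7 to 12.3 and 7.38 FPKM in A673 and from 41.0 to 14.9 and 7.0 FPKM in SKNMC. Whether reads were counted by strand is not given in the sources used here, and what part of the IGF2BP3 values comes from the shared bases was not tested.

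The summed FPKM of the 3 IGF2BP genes was 109, 94.9 and 68.9 in A673 with DMSO, 50 nM and 200 nM. In SKNMC the sum was 83.3, 65.8 and 51.2. Their proportions, which no scaling of a library can alter, shifted in A673. There IGF2BP1 made up 40.6%, 53.9% and 56.0% of the sum, while IGF2BP2 went from 29.4% to 26.6% and 18.3% and IGF2BP3 from 30.0% to 19.4% and 25.7%. In SKNMC the share of IGF2BP1 was 47.1%, 44.4% and 45.0%. The spread of such shares between replicates is unknown.

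**Figure D3:**
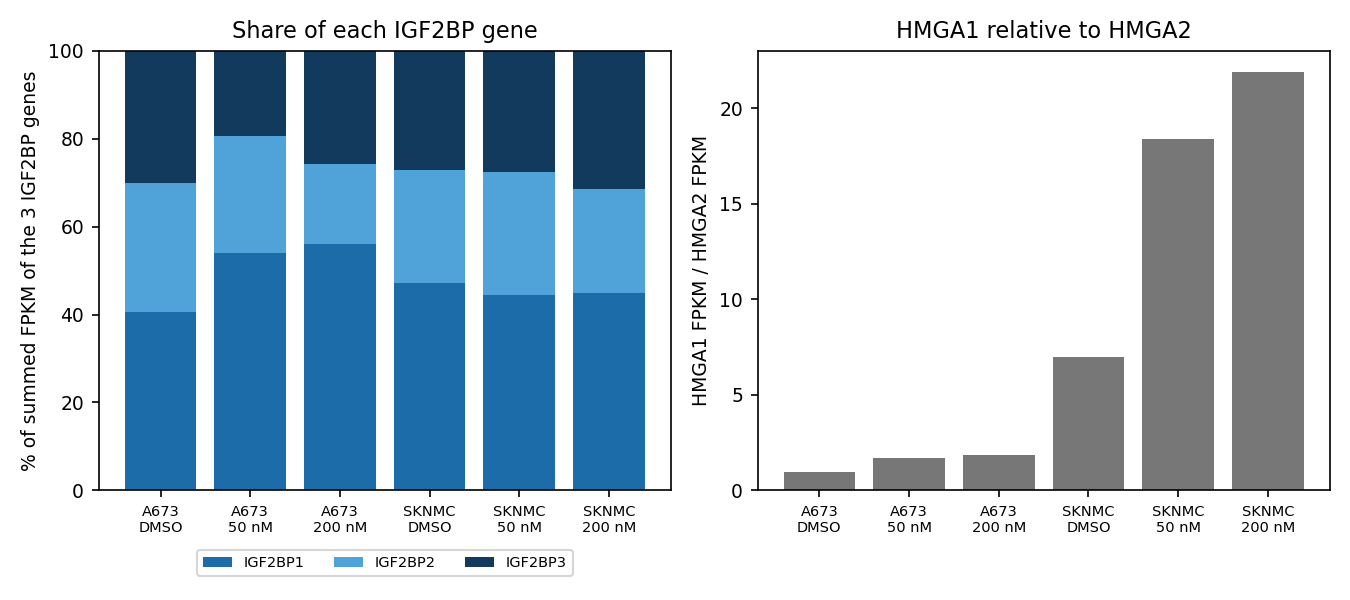
Left, share of each IGF2BP gene in the summed FPKM of the 3 genes, in %, and right, FPKM of HMGA1 divided by that of HMGA2, for the 6 libraries. IGF2BP1 goes from 40.6% to 56.0% of the sum in A673, and HMGA1 over HMGA2 goes from 0.941 to 1.83 in A673 and from 6.99 to 21.9 in SKNMC.

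The 2 HMGA genes went apart. HMGA1 (ENSG00000137309, chr6:34204649-34214008, plus strand) is expressed in most proliferating cells. It measured 82.3, 88.2 and 99.3 FPKM in A673 and 186, 212 and 216 FPKM in SKNMC. It was the only one of the 6 active genes above DMSO in all 4 THZ1 libraries, as 10.0% of genes active in both lines were, with log2 changes of 0.10, 0.27, 0.19 and 0.21. These are small, and they move with the scaling in both directions. With the 75th percentile as the reference the changes of HMGA1 were 0.35, 0.64, 0.48 and 0.78. With ribosomal protein genes as the reference they were -0.14, -0.09, -0.14 and -0.37.

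HMGA2 (ENSG00000149948, chr12:66217910-66360075, plus strand) is normally restricted to embryonic mesenchyme and is a classical target of let-7. It measured 87.4, 52.5 and 54.4 FPKM in A673 and 26.6, 11.5 and 9.87 FPKM in SKNMC. It fell in SKNMC, with log2 changes of -1.14 at 50 nM and -1.35 at 200 nM, while those in A673 were -0.72 and -0.67. The gap between the lines was 0.41 at 50 nM and 0.67 at 200 nM, and 18.3% and 12.5% of genes had as large a gap, so the fall past 2-fold in 1 line alone does not set the lines apart. With the 75th percentile as the reference the changes in SKNMC were -0.87 and -0.83, and with ribosomal protein genes that in A673 at 200 nM was -1.03.

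The ratio of the 2 HMGA genes within a library needs no scaling. HMGA1 over HMGA2 was 0.941, 1.68 and 1.83 in A673 and 6.99, 18.4 and 21.9 in SKNMC. In both lines the ratio was higher with either dose than with DMSO. Against LIN28B, HMGA2 went within the library from 7.44 to 24.7 and 33.9 times its FPKM in A673 and from 1.79 to 3.71 and 5.32 times in SKNMC. IGF2BP1 over LIN28B went from 3.76 to 24.1 and 24.0 in A673 and from 2.63 to 9.39 and 12.4 in SKNMC.

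**Figure D4:**
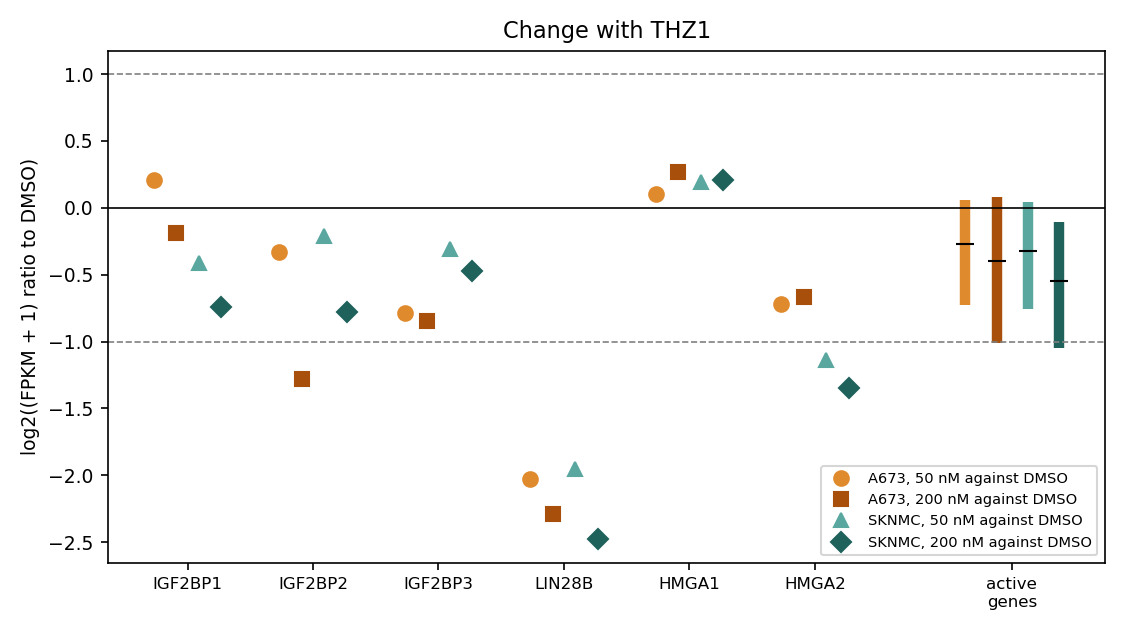
Log2 ratio of FPKM plus 1 to that line's DMSO library for the 6 active genes, with circles and squares for A673 at 50 and 200 nM and triangles and diamonds for SKNMC at 50 and 200 nM. At right, the vertical bars span the middle 50% of all active genes and the short black lines their medians; dashed lines mark 2-fold, LIN28B lies between -1.95 and -2.48, and HMGA1 lies just above 0.

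The largest difference between the lines was in the HMGA genes. With DMSO, HMGA2 was 3.28 times as high in A673 as in SKNMC, and the ratio was 4.55 at 50 nM and 5.52 at 200 nM. HMGA1 was lower in A673, at 44.2%, 41.6% and 45.9% of the SKNMC level. So 1 of the 6 genes was at least 2-fold higher and 1 at least 2-fold lower in A673 at each dose. The background was 8.42% higher and 15.0% lower of 12399 genes with DMSO, 9.91% and 14.1% at 50 nM, and 12.4% and 13.1% at 200 nM. With ribosomal protein genes as the reference, the background with DMSO was 17.0% higher and 8.93% lower, and HMGA1 was no longer 2-fold lower, with log2 differences of -0.70, -0.70 and -0.42. The same scaling put the backgrounds at 20.8% and 6.81% at 50 nM and at 28.6% and 5.00% at 200 nM.

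For the other genes of the group no difference between the lines was 2-fold. With DMSO the log2 difference, A673 minus SKNMC, was 0.17 for IGF2BP1, 0.56 for IGF2BP2, 0.50 for IGF2BP3 and -0.32 for LIN28B. At 200 nM it was 0.72 for IGF2BP1 and between -0.13 and 0.13 for LIN28B, IGF2BP2 and IGF2BP3. These differences move with the scaling: with ribosomal protein genes as the reference those at 200 nM were 1.36 for IGF2BP1, 0.67 for IGF2BP2, 0.76 for IGF2BP3 and 0.25 for LIN28B, and the sign of LIN28B turned.

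The genes with the most similar profile were found by the root mean square difference of log2(FPKM + 1), each gene centred on its mean over the 6 libraries, among 12252 protein-coding genes. This says nothing of function. Nearest to LIN28B were TTC9C at 0.094, LRIF1 at 0.096 and ALKBH4 at 0.106. TTC9C went from 25.1 to 4.78 and 3.42 FPKM in A673 and from 30.9 to 6.99 and 4.78 FPKM in SKNMC. Among the nearest to IGF2BP1 was PSMA5, a proteasome subunit, at 0.105. Nearest to IGF2BP2 were PPP2R5E at 0.070, CEP97 at 0.075 and UBE2C, a mitotic ubiquitin-conjugating enzyme, at 0.083. Nearest to IGF2BP3 were ZNF792 at 0.057, RHOJ at 0.068 and HOXB4 at 0.086, all of them at low levels, where adding 1 flattens their changes.

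HMGA1 lay nearest to FOLH1 at 0.063, IFITM3 at 0.064 and ABCA2 at 0.067, of which FOLH1 was listed at 0 in A673 with DMSO and at 50 nM. HMGA2 had no neighbour as close, with SFXN4 at 0.153, ELOVL6 at 0.158 and NMI at 0.163. Within the group IGF2BP2 and IGF2BP3 were the closest pair, at 0.294. LIN28B was 0.803 from its nearest member, IGF2BP3. The HMGA genes lay about as far from theirs, HMGA1 at 0.804 from IGF2BP3 and HMGA2 at 0.820 from IGF2BP1.

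The related genes form 7 lists with some genes in several lists, and each list is described by its counts and median. Beside the counts of genes that fell stand the shares of all active genes, 15.9% and 25.3% in A673 at the low and high dose and 15.8% and 27.3% in SKNMC. The median of all active genes was -0.27 and -0.40 in A673 and -0.32 and -0.55 in SKNMC. None of the lists was tested against other genes, and the shares of all active genes also go up with dose. The first list covers the processing of microRNAs and the turnover of let-7 precursors. Of 13 active genes in A673, 0 fell at 50 nM and 1 fell at 200 nM, and of 14 in SKNMC 1 fell at each dose. The medians were 0.01, -0.33, -0.01 and -0.45. ZCCHC11, also called TUT4, adds uridines to the let-7 precursors that LIN28A holds and measured 30.9, 38.4 and 22.1 FPKM in SKNMC. ZCCHC6, or TUT7, fell in A673 at 200 nM, with a log2 change of -1.04. DICER1, which cuts the precursors, had log2 changes of 0.42 and -0.90 in A673 and 0.38 and -0.12 in SKNMC. Among the Argonaute genes, whose proteins carry mature microRNAs, AGO4 fell in SKNMC at both doses, with log2 changes of -1.51 and -1.24, and AGO3 rose there at 50 nM, with 1.25.

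The second list holds genes known as targets of let-7 or LIN28. In A673 2 of 15 active genes fell at 50 nM and 6 at 200 nM, whereas 0 and 8 of 17 did in SKNMC. The medians were -0.15, -0.77, -0.26 and -0.87. CDC25A, a phosphatase that drives the cell cycle, fell at 200 nM in both lines, with log2 changes of -2.05 and -2.67. HRAS, a small GTPase of the RAS family, had log2 changes of 0.09 and -0.15 at that dose. None of these listed genes rose.

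Active genes were also grouped by the let-7 seed matches of their 3′ UTRs. In A673 at 50 nM the median log2 change was -0.26 for 9449 active genes without a match, -0.35 for 1025 with 1 match and -0.27 for 142 with 2 or more. At 200 nM they were -0.37, -0.53 and -0.56 in A673 and -0.55, -0.61 and -0.55 in SKNMC, and at 50 nM in SKNMC they were -0.31, -0.37 and -0.27. The 3 classes differ in 3′ UTR length, with medians of 1197, 2839 and 5184 bases in A673.

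The third list holds proteins that are known to work with IGF2BP1 on RNA. Of the 10 partner genes, all active in both lines, none fell or rose 2-fold in any comparison, and the medians were 0.11, 0.04, 0.15 and 0.00. YBX1, a cold shock domain protein, had log2 changes of 0.45, 0.59, 0.48 and 0.51 in the order A673 at 50 and 200 nM and SKNMC at 50 and 200 nM. STAU1, a double-stranded RNA binding protein, had log2 changes of -0.33, -0.86, -0.12 and -0.90. Transcripts known to be bound by IGF2BP proteins gave 0 falls of 8 active genes except in SKNMC at 200 nM, where MYC and BTRC fell, with log2 changes of -1.35 and -1.07. MYC, also a let-7 target, measured 198, 167 and 76.8 FPKM in SKNMC. Medians were 0.08, -0.39, -0.04 and -0.45. CTNNB1, the gene of beta-catenin, had log2 changes of 0.45, 0.07, 0.60 and 0.11. IGF2, the transcript for which the family is named, was at most 0.349 FPKM in SKNMC and was not active in either line.

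The machinery of N6-methyladenosine (m6A), a mark on mRNA that IGF2BP proteins read, makes up a further list. Of its 16 genes, all active, 1 fell in A673 at 50 nM and 8 at 200 nM, beside 2 and 7 for SKNMC. The medians were -0.09 and -1.07 in A673 and 0.06 and -0.75 in SKNMC. YTHDF2, a reader that leads mRNA to decay, fell at 200 nM with log2 changes of -2.37 and -2.53, against -0.57 and -0.54 at 50 nM. WTAP, a subunit of the writer complex, had log2 changes of 0.03 and -1.32 in A673 and of 0.14 and -1.16 in SKNMC. RBM15B fell in all 4 comparisons, with log2 changes of -1.63, -1.42, -1.76 and -1.58, while its paralogue RBM15 rose at 50 nM, with 1.32 in A673 and 1.64 in SKNMC. HNRNPC, a nuclear protein that binds RNA at m6A switches, had log2 changes of 0.14, 0.42, 0.06 and 0.28.

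Of the 12 other high mobility group genes, all active, 2 fell at 50 nM and 3 at 200 nM in each line, near the shares of all active genes, with medians of -0.06 and -0.02 in A673 and -0.01 and -0.06 in SKNMC. HMGXB4 fell in all 4 comparisons, with log2 changes of -1.98, -2.41, -1.87 and -1.87. The abundant architectural genes did not, as with HMGB1, which had log2 changes of 0.13, 0.22, 0.11 and 0.02. HMGN3, a nucleosome-binding protein gene, had log2 changes of 0.42, 0.42, 0.32 and 0.11.

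Of 11 listed other oncofetal genes, 4 were active in A673 and 6 in SKNMC. AFP, GPC3, IGF2 and DLK1, classical fetal genes of liver and other tissues, were below 1 FPKM in both DMSO libraries. In A673 1 fell at 50 nM and 2 fell at 200 nM, and the same numbers fell in SKNMC. Median log2 changes were 0.15 and -0.46 in A673 and -0.26 and -0.41 in SKNMC, each over few genes. PLAGL2, a zinc finger factor gene, fell in every comparison, with log2 changes of -1.39, -2.22, -1.05 and -2.33. PEG10, a retrotransposon-derived imprinted gene, had log2 changes of 0.77 and 0.55 in A673 and of 1.00 and 0.90 in SKNMC, of which the value at 50 nM in SKNMC is a 2-fold rise. PRAME, a cancer-testis antigen, was at 81.7 FPKM in SKNMC with DMSO and fell there at 200 nM, with a log2 change of -1.15.

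**Figure D5:**
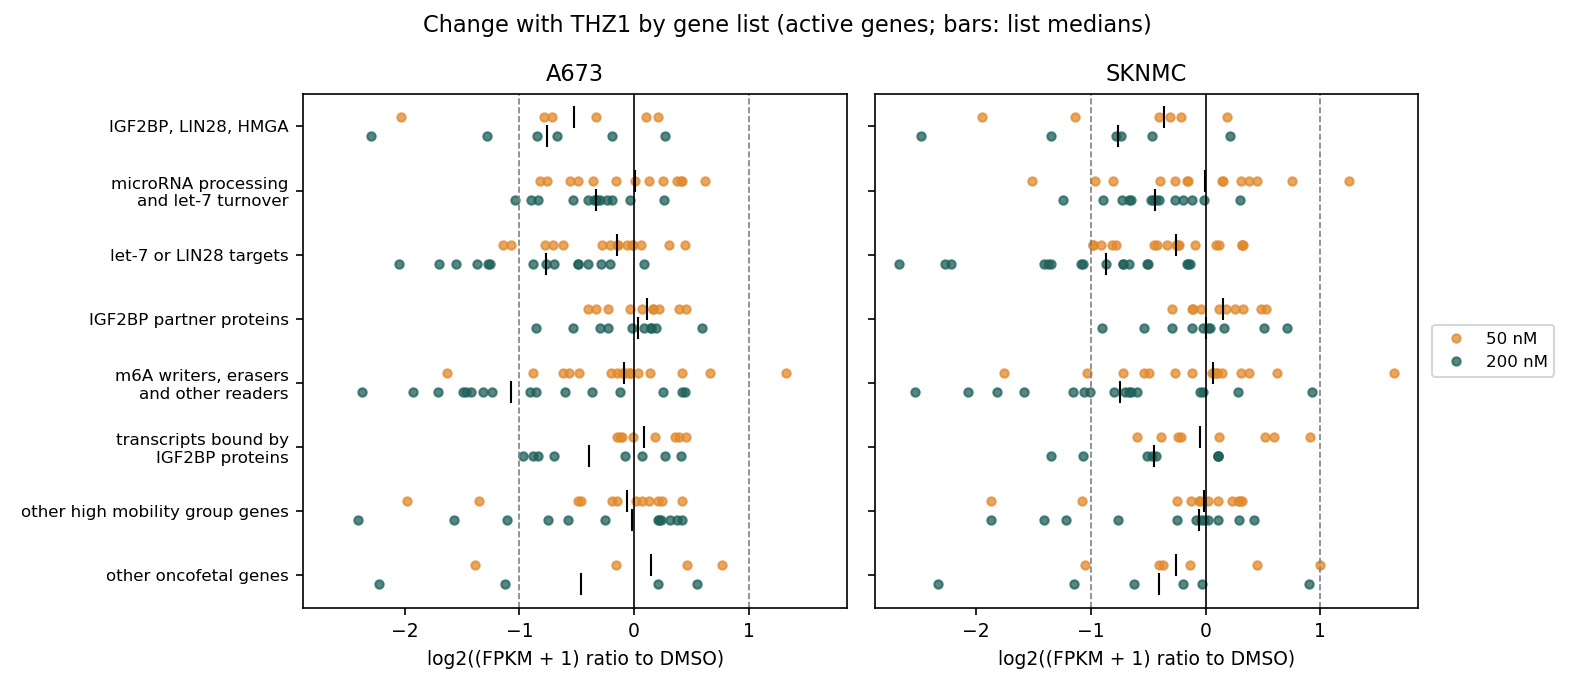
Log2 ratio of FPKM plus 1 to DMSO for each active gene of 8 lists in A673 (left) and SKNMC (right), with 50 nM in orange and 200 nM in green; short black bars are list medians and dashed lines mark 2-fold. The list medians lie further left at 200 nM than at 50 nM, except that of the other high mobility group genes in A673. The 10 IGF2BP partner genes all lie within 2-fold.

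The loci of these genes are mostly long. The locus of IGF2BP2 spans 181 kb, that of IGF2BP3 160 kb, HMGA2 142 kb, LIN28B 126 kb, IGF2BP1 58.2 kb and HMGA1 9.36 kb, while the median of genes active in both lines is 31.7 kb. The 3 longest loci had mean log2 changes of -0.65, -0.61 and -0.97 over the 4 THZ1 libraries, against -2.19 for LIN28B. HMGA1, the shortest, was also the one with a mean above 0, at 0.19. The locus of LIN28A, which was not active, spans 18.9 kb. Whether locus length and change are related was not tested.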

How the data were processed

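RNA-seq of 6 libraries was analysed, 1 per condition, with groups taken from the sample titles. According to the methods, the authors used a TruSeq kit and a HiSeq2000, and paired reads of 100 bp were aligned to hg19 with Ensembl 75. The submitters' processing notes name STAR and Cufflinks, while the methods name StringTie for the FPKM step. The deposited FPKM values cover 20311 protein-coding and 7109 lincRNA genes. The table's title speaks of average expression, but the labels give 1 library per condition, and each column was treated as 1 library. The labels and methods spell the second line both SKNMC and SKMNC. The deposited log2 fold changes of the authors were not used.

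Changes were log2((FPKM + 1)/(FPKM + 1)). Genes above 1 FPKM in the DMSO library were active, or, between lines, above 1 FPKM in at least 1 of the 2 libraries, and 2-fold was the threshold of a call. Each line has 1 library per condition and no test was run; a model of line plus dose, which would treat the lines as replicates, was not used. The genes named are the 7 members, the extreme and the called or otherwise count-relevant genes of each list, and the 3 nearest profiles per member; ZCCHC11, DICER1 and HMGB1 were picked for their roles after their values were seen, and some genes under the rule are not reported here. The members and lists were chosen with earlier results of these data known. Let-7 sequences came from RefSeq (GRCh38.p14) and 3′ UTRs from GENCODE release 44 on GRCh37, using the Ensembl canonical transcript of each protein-coding gene. Alternatives were a pseudocount of 0.1, scaling to a common sum, to the 75th percentile or to the median of 85 ribosomal protein genes, and a 1.5-fold threshold. Scaling to the 75th percentile put the median change of active genes at -0.06 and -0.07 in A673 and -0.07 and -0.07 in SKNMC, and scaling to ribosomal protein genes at -0.47, -0.69, -0.56 and -0.95. The calculation was run on A673 DMSO values of well-expressed genes with known folds put in, and gave them back. That checks the arithmetic alone and does not cover genes at low levels. Python 3.11.15, pandas 2.3.3, numpy 2.4.6 and matplotlib 3.10.9 were used.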

Additional observations from a re-analysis of the deposited data

Results flagged for a closer look

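IGF2BP1 was higher with 50 nM THZ1 than with DMSO in A673 and lower in SKNMC, with log2 changes of 0.21 and -0.41. The lines have 1 library per condition each, so the difference was not tested. Of the 10574 genes active in both lines, 935 (8.84%) also were above DMSO in A673 and below it in SKNMC at 50 nM. Another 674 (6.37%) went the other way. With ribosomal protein genes as the reference the changes of IGF2BP1 were -0.03 and -0.72, so the signs were no longer opposite.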

How the results depend on the processing

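LIN28B stayed at least 2-fold below DMSO in all 4 comparisons under every alternative, and no call changed direction. With the 75th percentile as the reference, the number of genes that fell was 1 in A673 at 200 nM, 1 in SKNMC at 50 nM and 1 in SKNMC at 200 nM. With ribosomal protein genes as the reference, 2 fell in A673 at 50 nM, 4 in A673 at 200 nM and 4 in SKNMC at 200 nM, and from 50 to 200 nM 1 fell in A673. With a 1.5-fold threshold these numbers were 3, 4, 4 and 1, and with a pseudocount of 0.1 the last was 1. Between the lines, ribosomal protein scaling left 0 genes lower and 2 higher in A673 at each of DMSO, 50 nM and 200 nM, and a 1.5-fold threshold gave 2 higher at 50 nM and 2 at 200 nM. Of 54 log2 changes of the 6 active genes, 54 kept their direction and call with a common sum, 53 with a pseudocount of 0.1, 41 with the 75th percentile and 32 with ribosomal protein genes. The amount of RNA per cell is unknown. Without replicates no result has an error, no library could be left out, and depth is unknown. No paired analysis was possible because the conditions share a single replicate number with 1 library each, and a model that takes the lines as blocks was not run.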
